A study of Mus musculus with 6 samples.

Results

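The transcripts of mitochondrial DNA were examined in the hippocampus of DBA/2 and C57BL/6 mice, a pair of inbred strains, with 3 libraries each. Members were the rows whose symbol begins with mt-, 37 of the 51912 genes in the deposited table. They are 13 protein genes, 2 ribosomal RNAs and 22 transfer RNAs, told apart by symbol. The labels give strain and tissue for both groups and no age, sex, substrain, allele or treatment. RNA came from 3 frozen hippocampus samples drawn at random per strain, and whether each is a separate animal is not stated. The comparison asks how gene expression in this region differs by strain.

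Mitochondrial DNA is a small circle whose strands are transcribed as long precursors. Transfer RNAs lie between most of the other genes, and their excision releases the ribosomal RNAs and the messenger RNAs, most of which are then polyadenylated. The protein genes encode core subunits of complexes I, III, IV and V of oxidative phosphorylation, and all other proteins of mitochondria come from nuclear genes. Hippocampal neurons are rich in mitochondria because firing and synaptic transmission use much ATP.

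Of the 37 members, 16 passed the filter on low counts: all 13 protein genes, both ribosomal RNAs and mt-Tp, the gene of the proline transfer RNA. Of these, 7 were lower in DBA/2 and 9 were not called (edgeR, quasi-likelihood F test, adjusted p under 0.05 by Benjamini and Hochberg). Over all 17517 genes tested, 13.7% were lower in DBA/2 and 9.09% higher. The lower members were both ribosomal RNAs and the protein genes mt-Nd5, mt-Nd6, mt-Cytb, mt-Co1 and mt-Nd4. The median log2 fold change (DBA/2 over C57BL/6) was -0.059 over the 16 members and 0.0027 over all genes tested.

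Total counts per library were 13839366 to 16912153 in DBA/2 and 13867280 to 20185683 in C57BL/6. Xist, a transcript of the inactive X chromosome, had 12, 10 and 2 counts in DBA/2, against 3214, 1 and 6995 in C57BL/6, while the Y-linked Ddx3y had 837 to 1323 counts in DBA/2 and 996 to 1048 in C57BL/6. So 2 of the C57BL/6 libraries held both transcripts, and the labels do not give sex; its part in the strain differences was not tested. Without those 2 libraries, which leaves 1 C57BL/6 library, 3 protein genes were lower in place of 5. The calls that ended were those of mt-Co1, at a log2 fold change of -0.16 (edgeR adjusted p = 0.232), and mt-Nd4, at -0.23 (edgeR adjusted p = 0.0595), against -0.19 and -0.19 with all libraries. The markers listed for hippocampal neurons summed to 7459 to 8078 CPM in DBA/2 and 7138 to 7757 CPM in C57BL/6. CPM is the count relative to the TMM-scaled library total. Most of that sum was Camk2a, Snap25 and Slc17a7, with means of 3616, 1882 and 1117 CPM over all libraries. The sum therefore says little about the less abundant markers of the list, such as Prox1 at 125 CPM.

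Mitochondrially encoded transcripts took a smaller share of all counts in DBA/2, and the ribosomal RNAs were lower there also relative to the summed protein genes. The protein genes held 4.33%, 4.12% and 4.29% of all counts in DBA/2, against 4.86%, 4.75% and 4.83% in C57BL/6. The ribosomal RNAs held 0.636%, 0.610% and 0.648% in DBA/2, against 0.961%, 0.901% and 0.813% in C57BL/6. No DBA/2 library reached the lowest C57BL/6 library in either class. The share of all members averaged 4.89% ± 0.130 in DBA/2 and 5.72% ± 0.0969 in C57BL/6 (SD, n = 3 each; exact two-sided permutation p = 0.1, the smallest that 3 against 3 libraries allow).

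The ratio of ribosomal RNA to protein gene counts was 0.147, 0.148 and 0.151 in DBA/2, against 0.198, 0.190 and 0.168 in C57BL/6, again without overlap (exact two-sided permutation p = 0.1). Of the difference in the members' share, -0.829 percentage points, mt-Co1 held -0.228, mt-Rnr2 -0.136, mt-Cytb -0.136, mt-Nd5 -0.129 and mt-Rnr1 -0.124 points. These 5 genes are also abundant. mt-Nd1 and mt-Nd2, at -0.0195 and -0.00595 points, added little although each had more counts than mt-Nd5 in both strains. In bulk tissue, fewer cells rich in mitochondria and less mitochondrial RNA per cell cannot be told apart.

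**Figure D1:**
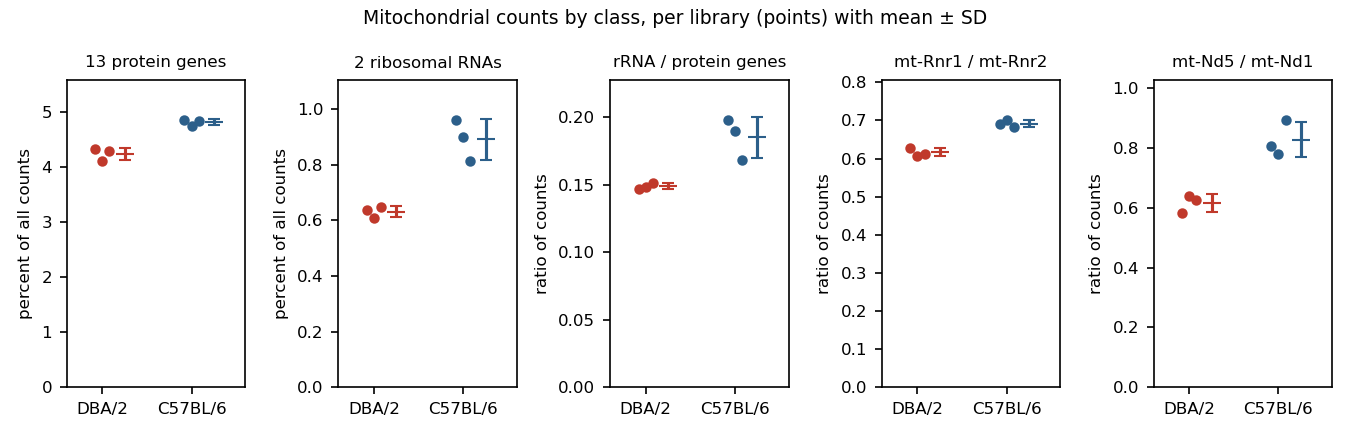
Share of all counts held by the 13 protein genes and by the 2 ribosomal RNAs, in percent, and 3 ratios of counts, for the DBA/2 (red) and C57BL/6 (blue) libraries; points are libraries, with the mean ± SD beside them. In all 5 panels each DBA/2 library lies below each C57BL/6 library, and the ratio of mt-Nd5 to mt-Nd1 is 0.583 to 0.640 in DBA/2 and 0.780 to 0.892 in C57BL/6, a ratio chosen after its values were seen.

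The ribosomal RNAs, which form the core of the mitochondrial ribosome, both fell, and mt-Rnr1 had the lowest log2 fold change of the 16 members tested. mt-Rnr1, the RNA of the small subunit (GRCm38 mitochondrial genome, 70 to 1024, plus strand), had 2436, 2284 and 2455 CPM in DBA/2, against 3978, 3752 and 3317 CPM in C57BL/6. Its log2 fold change was -0.62 ± 0.057 (SE, edgeR adjusted p = 8.18e-08). mt-Rnr2, the RNA of the large subunit (1094 to 2675), had 3877, 3756 and 4007 CPM in DBA/2, against 5751, 5355 and 4866 CPM in C57BL/6. The C57BL/6 libraries spread more widely than the DBA/2 libraries, and the groups do not overlap for either gene. The log2 fold change of mt-Rnr2 was -0.46 ± 0.053 (SE, edgeR adjusted p = 8.6e-07).

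The ribosomal RNAs are transcribed one after the other. There were 0.628, 0.608 and 0.613 counts of mt-Rnr1 per count of mt-Rnr2 in DBA/2, against 0.692, 0.701 and 0.682 in C57BL/6 (exact two-sided permutation p = 0.1, a ratio chosen after its values were seen). Whether the kit selected polyadenylated RNA or removed ribosomal RNA is not stated, so the level of these RNAs relative to messenger RNAs holds for this library preparation.

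Of the 7 complex I genes, mt-Nd5, mt-Nd6 and mt-Nd4 fell, and mt-Nd1, mt-Nd2, mt-Nd3 and mt-Nd4l were not called. Complex I is the NADH dehydrogenase that passes electrons to ubiquinone, and these genes encode subunits of its membrane arm. mt-Nd5, the subunit at the far end of the arm (11742 to 13565), had 3221, 3253 and 3315 CPM in DBA/2, against 4540, 4444 and 4866 CPM in C57BL/6. The groups lie well apart, and the log2 fold change was -0.50 ± 0.046 (SE, edgeR adjusted p = 1.09e-08).

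mt-Nd6 is the only protein gene on the other strand (13552 to 14070, minus strand). It had 647, 567 and 631 CPM in DBA/2, against 846, 877 and 885 CPM in C57BL/6, and its log2 fold change was -0.50 ± 0.050 (SE, edgeR adjusted p = 4.03e-08). The number of mt-Nd6 counts per mt-Nd5 count was the same in both strains within the spread, at 0.189 ± 0.0135 in DBA/2 and 0.189 ± 0.00792 in C57BL/6 (SD, n = 3 each; exact two-sided permutation p = 1). The 3′ ends of mt-Nd5 and mt-Nd6 overlap by 14 bases on opposite strands. The end of mt-Nd5 is printed here with that overlap in capitals, because without stranded counting reads of one gene and of RNA antisense to it cannot be told apart (13492 to 13565, plus strand, GENCODE M21).
mt-Nd5: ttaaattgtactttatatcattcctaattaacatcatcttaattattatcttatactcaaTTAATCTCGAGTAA

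mt-Nd4 (10167 to 11544), a proton-pumping subunit beside mt-Nd5 in the complex, had 3330, 3078 and 3422 CPM in DBA/2, against 3633, 3837 and 3714 CPM in C57BL/6. Its log2 fold change of -0.19 ± 0.048 (SE, edgeR adjusted p = 0.00542) was smaller than those of mt-Nd5 and mt-Nd6. mt-Nd1, which helps to form the ubiquinone site, had 5525, 5083 and 5305 CPM in DBA/2 and 5623, 5697 and 5454 CPM in C57BL/6, with overlapping groups (edgeR adjusted p = 0.262). mt-Nd2, a proton-pumping subunit, had 4981, 4679 and 4951 CPM in DBA/2 and 5039, 4832 and 5168 CPM in C57BL/6 (edgeR adjusted p = 0.581). Their log2 fold changes were -0.076 ± 0.046 for mt-Nd1 and -0.042 ± 0.046 for mt-Nd2 (SE).

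The single complex III gene and the complex IV gene with the most counts fell too. mt-Cytb, cytochrome b of the bc1 complex (14145 to 15288), had 5919, 5524 and 6007 CPM in DBA/2, against 7356, 7259 and 7239 CPM in C57BL/6. Its log2 fold change was -0.32 ± 0.046 (SE, edgeR adjusted p = 7.73e-06). mt-Co1, the catalytic subunit of cytochrome c oxidase (5328 to 6872), had 19081, 18325 and 18976 CPM in DBA/2, against 22041, 20991 and 21216 CPM in C57BL/6. No library of one strain falls in the range of the other for either gene. The log2 fold change of mt-Co1 was -0.19 ± 0.045 (SE, edgeR adjusted p = 0.00297). In 8 of the 13 protein genes each DBA/2 library lay on one side of each C57BL/6 library, against 36.8% of all genes tested. In 5 of the 13 the DBA/2 libraries lay below, against 20.1% of all genes tested. These are the same 5 genes that edgeR called lower, so the separation is not a second line of evidence for them.

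**Figure D2:**
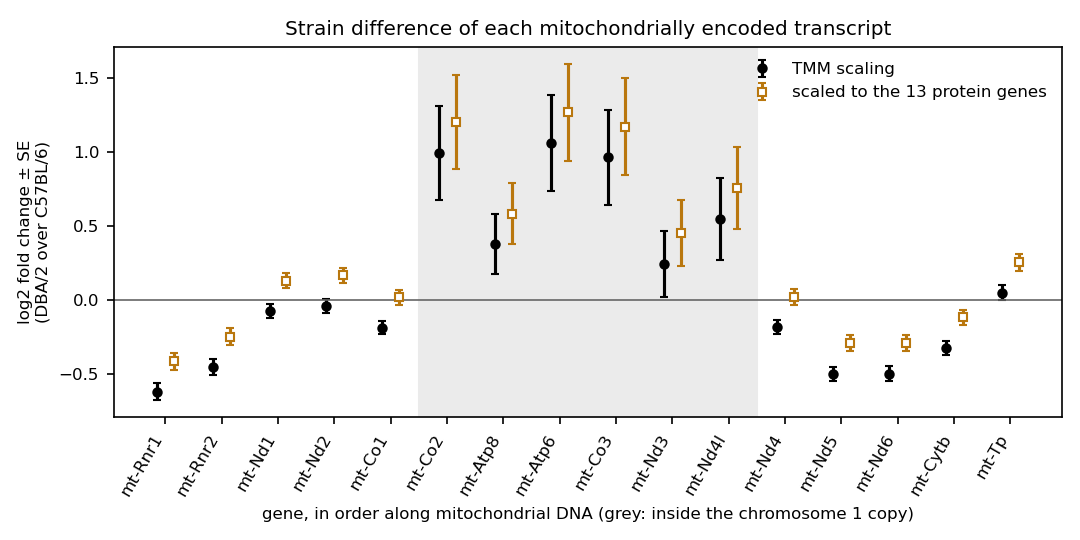
Log2 fold change (DBA/2 over C57BL/6) with its SE for the 16 members tested, in order along mitochondrial DNA, with TMM scaling (filled circles) and scaled to the summed counts of the 13 protein genes (open squares). Values run from -0.62 for mt-Rnr1 to 1.06 for mt-Atp6 with TMM scaling, and the genes on grey, which lie inside the chromosome 1 copy, have the widest errors.

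The fall was not even across the genes when the members were set against each other. Scaled to the summed counts of the 13 protein genes, mt-Nd5 and mt-Nd6 were still lower in DBA/2, with log2 fold changes of -0.29 and -0.29 (edgeR adjusted p = 7.88e-05 and 7.35e-05). On that scale mt-Rnr1 and mt-Rnr2 were lower as well, at -0.42 and -0.25 (edgeR adjusted p = 2.71e-06 and 0.000789). mt-Nd1 and mt-Nd2 were higher, at 0.13 and 0.16 (edgeR adjusted p = 0.038 and 0.00943), and mt-Co1 and mt-Nd4, at 0.018 and 0.019, were not called. mt-Cytb, at -0.12, had an edgeR adjusted p of 0.0514. Over all genes tested on that scale, 7.86% were lower and 42.5% higher in DBA/2, and their median log2 fold change was 0.21, as the mitochondrial total is itself lower there.

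The shares of the protein gene counts, which divide by the same total, restate this order. mt-Nd5 made up 7.74% ± 0.246 of these counts in DBA/2, against 9.49% ± 0.440 in C57BL/6, without overlap (SD, n = 3 each; exact two-sided permutation p = 0.1, adjusted over the 13 genes 0.144). mt-Nd2 made up 11.6%, 11.5% and 11.6% in DBA/2, against 10.2%, 10.1% and 10.6% in C57BL/6 (exact two-sided permutation p = 0.1, adjusted 0.144). So these shares moved in opposite directions, but as parts of the same total they are tied to each other. The level of mt-Nd2 itself was not raised in DBA/2, with a log2 fold change of -0.042 under TMM scaling (edgeR adjusted p = 0.581). mt-Co1 held the most counts in both strains, at 44.6% ± 0.338 in DBA/2 and 44.0% ± 0.675 in C57BL/6 (SD, n = 3 each). Its exact two-sided permutation p was 0.3, adjusted over the 13 genes 0.39. As the counts of the 6 genes from mt-Co2 to mt-Nd4l are uncertain, these are shares of counted reads. They need not be the shares of the messenger RNAs.

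Per length, 6 protein genes stood far below the other 7. The deposited FPKM (the count scaled by gene length and by the library total) of mt-Co2, mt-Atp8, mt-Atp6, mt-Co3, mt-Nd3 and mt-Nd4l lay between 5.11 and 200.5 over all libraries, against 1103 to 14086 for the other 7. These 6 genes form 1 uninterrupted run on mitochondrial DNA, from mt-Co2 (7013) to the end of mt-Nd4l (10173). Among the rest, the mean FPKM in DBA/2 was 12247 for mt-Co1, 5580 for mt-Nd1, 5119 for mt-Cytb, 4724 for mt-Nd2, 2394 for mt-Nd4, 1801 for mt-Nd5 and 1193 for mt-Nd6. In C57BL/6 mt-Cytb, at 6304 ± 39.4 FPKM, stood above mt-Nd1, at 5784 ± 116 FPKM (SD, n = 3 each), while in DBA/2 mt-Cytb, at 5119 ± 210 FPKM, stood below mt-Nd1, at 5580 ± 225 FPKM; the libraries of the pair do not overlap in either strain.

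**Figure D3:**
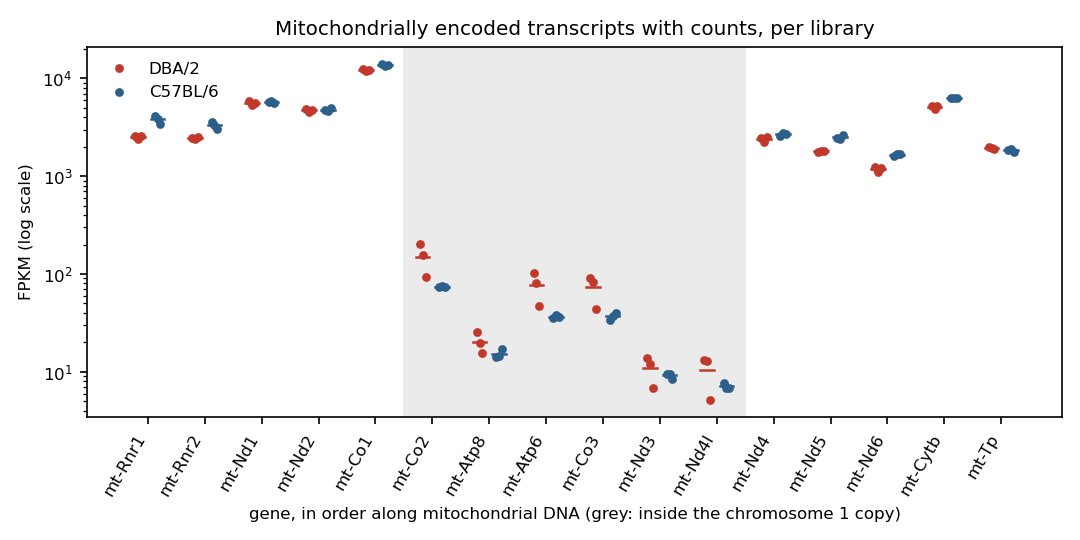
Deposited FPKM, on a log scale, of the 16 members with counts in the DBA/2 (red) and C57BL/6 (blue) libraries, in order along mitochondrial DNA; points are libraries and lines their means. The 6 genes on grey, inside the chromosome 1 copy, lie between 5.11 and 200.5 FPKM, and the other members at 1103 FPKM or more.

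That run has a near-identical copy in the nucleus. On chromosome 1 of GRCm38 (24611535 to 24616197, minus strand, 4663 bases), 7 annotated pseudogenes follow each other in the order of the mitochondrial genes, from the last part of mt-Co1 to the first part of mt-Nd4. Such insertions of mitochondrial DNA into chromosomes are common in mammals. The alignments of mt-Co2 with Gm28661, mt-Atp6 with Gm10925, mt-Co3 with Gm28437, mt-Nd4l with Gm10222 and mt-Nd4 with Gm28439 held no difference over 681, 678, 783, 294 and 876 bases. mt-Atp8 has no pseudogene of its own in the annotation, and its place in the block, read off from its neighbours, is 24614609 to 24614812. The sequence at that place was not used here. Reads within the aligned stretches of those 5 pairs cannot be told apart by sequence, so the levels of mt-Co2, mt-Atp6, mt-Co3 and mt-Nd4l, and part of that of mt-Nd4, are uncertain.

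Only 1 difference each separated mt-Nd3 from Gm28438 (over 345 bases) and mt-Co1 from Gm29216 (over 483 bases). The stretches that hold them are printed with the differing base in capitals, since a read that does not cover it fits both places, which leaves the level of mt-Nd3 and part of that of mt-Co1 uncertain too. The differences are T3C for mt-Nd3 and A1066T for mt-Co1, counted from 1 at the gene's 5′ end with the mitochondrial base first. The sequences are those of GENCODE M21 at mitochondrial positions 9459 to 9506 and 6390 to 6438, and on chromosome 1 at 24613072 to 24613119 and 24616140 to 24616188 (minus strand).
mt-Nd3: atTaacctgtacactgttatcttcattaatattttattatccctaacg
Gm28438: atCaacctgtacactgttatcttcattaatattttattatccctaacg
mt-Co1: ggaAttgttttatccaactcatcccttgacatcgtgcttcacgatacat
Gm29216: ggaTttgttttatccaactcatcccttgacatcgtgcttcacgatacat

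The other copies found among annotated transcripts are more diverged. Gm13339 on chromosome 2 aligned with mt-Nd2 over 510 bases with 17 differences, and the longest stretch without one was 129 bases. The first 150 aligned bases hold 4 of them, in capitals here (mitochondrial positions 4442 to 4591, and chromosome 2 positions 22590384 to 22590533, minus strand). mt-Nd2, unlike the 6 genes above, had a mean of 4724 FPKM in DBA/2 and 4781 FPKM in C57BL/6, and Gm13339 had 0 to 4 counts a library.
mt-Nd2: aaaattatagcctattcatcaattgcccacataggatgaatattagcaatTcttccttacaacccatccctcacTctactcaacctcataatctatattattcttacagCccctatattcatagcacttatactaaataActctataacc
Gm13339: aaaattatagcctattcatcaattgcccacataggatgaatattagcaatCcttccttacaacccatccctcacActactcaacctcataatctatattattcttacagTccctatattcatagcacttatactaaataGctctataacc

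The genes at the edges of the block lie partly outside it. mt-Co1 shares 483 of its bases with the chromosome 1 copy and mt-Nd4 shares 876, which leaves 1062 and 502 bases. If every count came from those bases, mt-Co1 would stand at 17817 ± 344 FPKM over those bases in DBA/2 and 19963 ± 481 in C57BL/6 (SD, n = 3 each). On the same reckoning mt-Nd4 would stand at 6571 ± 335 in DBA/2 and 7352 ± 208 in C57BL/6, above rather than below mt-Nd1 in FPKM. Where within a gene the counted reads lay was not analysed here, so the place of mt-Nd4 in the order of levels is uncertain. Its strain difference uses 1 length for both strains, but whether reads of the shared bases were counted alike in both was not tested.

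Inside the block, the counted levels were higher in 2 of the DBA/2 libraries, and the third stood nearer to C57BL/6. mt-Co2, a subunit that carries the copper site where cytochrome c delivers electrons, had 136, 106 and 63.5 CPM in DBA/2, against 50.7, 52.7 and 50.9 CPM in C57BL/6. Its log2 fold change was 0.99 ± 0.32 (SE, edgeR adjusted p = 0.112). mt-Co3, a core subunit of the same oxidase, had 71.0, 64.8 and 34.2 CPM in DBA/2, against 27.0, 29.6 and 31.2 CPM in C57BL/6 (edgeR adjusted p = 0.124). For both genes DBA/2 replicate 3 lies close to the C57BL/6 libraries, though above them.

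Of the complex V genes, the strains overlapped for mt-Atp8 and not for mt-Atp6. mt-Atp6, the subunit at the proton path of ATP synthase, had 69.3, 55.0 and 32.1 CPM in DBA/2, against 24.4, 26.2 and 25.04 CPM in C57BL/6 (log2 fold change 1.06 ± 0.32 SE, edgeR adjusted p = 0.101). mt-Atp8, a short subunit of the stalk, had 5.17, 3.95 and 3.17 CPM in DBA/2 and 2.95, 2.99 and 3.54 CPM in C57BL/6, with overlap (edgeR adjusted p = 0.21). The reading frames of these genes overlap by 43 bases, shown in capitals at the end of mt-Atp8 (7887 to 7969, plus strand), and a read there belongs to both genes.
mt-Atp8: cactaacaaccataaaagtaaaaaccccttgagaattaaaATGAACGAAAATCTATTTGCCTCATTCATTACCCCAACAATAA

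The complex I genes of the block had the lowest mean FPKM of the 13 protein genes in both strains. mt-Nd3, a small subunit with a loop near the ubiquinone site, had 4.76, 4.18 and 2.38 CPM in DBA/2 and 3.37, 3.35 and 2.99 CPM in C57BL/6 (edgeR adjusted p = 0.492). mt-Nd4l, a small subunit of the proton-pumping arm, had 3.88, 3.77 and 1.51 CPM in DBA/2 and 2.29, 2.04 and 2.04 CPM in C57BL/6 (edgeR adjusted p = 0.18). In both genes DBA/2 replicate 3 was the lowest of the 6 libraries and the other DBA/2 libraries the highest. mt-Nd4l runs into mt-Nd4 with 7 shared bases, in capitals here (10107 to 10173, plus strand), so this pair too shares reads.
mt-Nd4l: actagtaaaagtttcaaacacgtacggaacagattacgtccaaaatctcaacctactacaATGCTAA

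The call for these genes turned on 1 library and on the tool. edgeR called 0 of the 13 protein genes higher, while 3 (mt-Co2, mt-Atp6 and mt-Co3) had an unadjusted p under 0.05, and the DESeq2 Wald test and limma-voom each called 3 higher. Without DBA/2 replicate 3, edgeR called 4 higher, with log2 fold changes of 1.24 for mt-Co2, 1.31 for mt-Atp6, 1.22 for mt-Co3 and 0.85 for mt-Nd4l. The 5 protein genes that fell were called without each single library in turn, with edgeR adjusted p up to 0.0419 for mt-Co1 and 0.0389 for mt-Nd4. Without both libraries rich in Xist, the calls of mt-Co1 and mt-Nd4 ended, as given above.

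The summed nuclear copies and the summed mitochondrial genes inside the block had a like pattern over the libraries. The 7 pseudogenes of the block summed to 306, 265 and 158 CPM in DBA/2, against 142, 141 and 125 CPM in C57BL/6. The 6 mitochondrial genes inside it summed to 290, 238 and 137 CPM in DBA/2, against 111, 117 and 116 CPM in C57BL/6. Both sums were highest in DBA/2 replicates 1 and 2 and only slightly raised in replicate 3. Of the 12 copies found, 8 were tested, and edgeR called 0 of them, with Gm10925 at a log2 fold change of 1.09 ± 0.35 (SE, adjusted p = 0.113). At an unadjusted p under 0.05 3 were higher, and DESeq2 and limma-voom called 3 and 5 higher. Without DBA/2 replicate 3, edgeR called 6 higher.

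The number of copy counts per count of the gene varied between pairs and, in some, between libraries. Gm10925 had 1.32, 1.503 and 1.28 counts per count of mt-Atp6 in DBA/2, and 1.29, 1.31 and 1.44 in C57BL/6. Gm28661 had 0.335, 0.325 and 0.266 counts per count of mt-Co2 in DBA/2, and 0.319, 0.329 and 0.323 in C57BL/6. Gm28437 had 0.765, 0.762 and 0.745 per count of mt-Co3 in DBA/2, and 0.855, 0.820 and 0.663 in C57BL/6. Gm28438 held 10.4, 10.4 and 18.6 counts per count of mt-Nd3 in DBA/2, and 13.6, 11.3 and 8.08 in C57BL/6. Its own level was 49.3, 43.5 and 44.2 CPM in DBA/2 and 45.7, 37.9 and 24.2 CPM in C57BL/6, without the low value in DBA/2 replicate 3. The copies of the genes at the edges did not go with their genes. These copies align with only 483 bases of mt-Co1 and 876 bases of mt-Nd4. Copy and gene were thus counted over unlike stretches, and their contrast is limited by that. Gm29216 had 34.8, 27.2 and 14.9 CPM in DBA/2, against 12.9, 13.1 and 12.02 CPM in C57BL/6, while mt-Co1 was lower in DBA/2. Gm28439 had 27.4, 24.7 and 13.3 CPM in DBA/2, against 10.7, 11.8 and 14.6 CPM in C57BL/6, while mt-Nd4 was lower. Per count of mt-Co1, Gm29216 thus had 0.00182, 0.00148 and 0.000786 counts in DBA/2, against 0.000584, 0.000622 and 0.000567 in C57BL/6. With copies added to their mitochondrial genes, the same number of protein genes was called, 5 lower and 0 higher. Whether the chromosome 1 block and the mitochondrial DNA have the same sequence in DBA/2 was not tested.

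**Figure D4:**
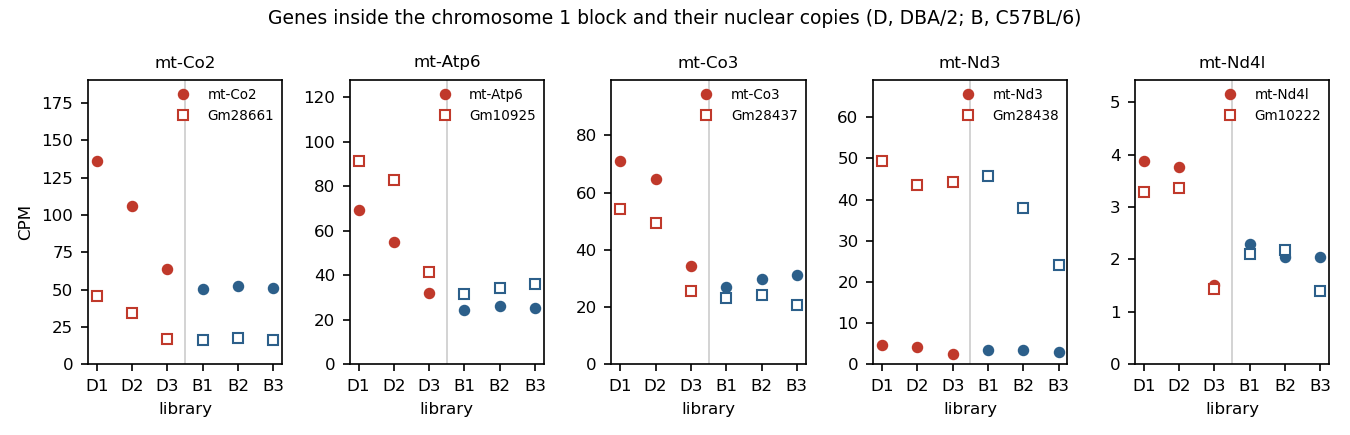
Level in CPM of 5 mitochondrial genes inside the chromosome 1 block (filled circles) and of the nuclear copy of each (open squares) in DBA/2 libraries 1 to 3 (D, red) and C57BL/6 libraries 1 to 3 (B, blue). For mt-Co2, mt-Atp6, mt-Co3 and mt-Nd4l gene and copy are highest in DBA/2 libraries 1 and 2, while Gm28438 exceeds mt-Nd3 in each library.

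Transfer RNAs, which carry amino acids to the mitochondrial ribosome, were almost absent from the counts. In all 6 libraries 21 of the 22 were at 0, which allows up to 3 counts of each in a library, or 0.177 to 0.217 CPM in DBA/2 and 0.149 to 0.216 CPM in C57BL/6. The exception was mt-Tp, with 2236, 2202 and 1764 counts in DBA/2 and 2103, 1775 and 2402 counts in C57BL/6. Its level was 131, 130 and 127 CPM in DBA/2 and 127, 129 and 120 CPM in C57BL/6, with overlapping groups and a log2 fold change of 0.048 ± 0.050 (SE, edgeR adjusted p = 0.555). Scaled to the summed protein genes its log2 fold change was 0.25 (edgeR adjusted p = 0.000769), on a scale where the median of all genes tested was 0.21 and 42.5% of them were called higher.

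mt-Tp is also the last gene of the annotation, on the minus strand at 15356 to 15422, beside the noncoding control region. mt-Tf, the gene at the other end of the annotation, was at 0 counts. mt-Tp touches its neighbour mt-Tt with 0 bases between them, and each of the other 21 lies within 2 bases of its nearest gene. All 22 are 59 to 75 bases long, and how the counting treated reads over several genes is not given in the sources used here. Its sequence is printed 5′ to 3′ with the anticodon of proline in capitals, found as TGG in a loop closed by 5 base pairs.
mt-Tp: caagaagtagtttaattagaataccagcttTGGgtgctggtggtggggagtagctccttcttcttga

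Nuclear genes that maintain mitochondrial DNA and transcribe, process and translate its RNA were called in both directions. Of 152 tested, 17 were lower and 8 higher in DBA/2, or 16.4% against 22.8% of all genes tested, with a median log2 fold change of 0.022. By role, 1 of 16 transcription genes was lower, 2 of 27 processing genes lower and 1 higher, and 1 of 14 DNA maintenance genes lower and 2 higher. The factors that start and drive transcription were not called, with log2 fold changes of -0.028 for the polymerase Polrmt and 0.034 for the DNA-packaging activator Tfam.

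Lrpprc, which binds and stabilises mitochondrial messenger RNAs, fell. It had 65.0, 66.8 and 66.5 CPM in DBA/2, against 82.6, 81.6 and 78.7 CPM in C57BL/6, without overlap, and its log2 fold change was -0.29 ± 0.055 (SE, edgeR adjusted p = 0.000296). Its partner Slirp, at 0.023, was not called. Mterf3, a repressor of mitochondrial transcription, had 22.8 ± 0.719 CPM in DBA/2 and 27.9 ± 0.749 CPM in C57BL/6 (SD, n = 3 each), also a fall. Pnpt1, a nuclease of mitochondrial RNA decay, fell by 0.20 on the log2 scale with an edgeR adjusted p of 0.0384, which was above 0.05 without any 1 of the 6 libraries and reached 0.131. Trmu, which modifies transfer RNAs, rose, with 21.6 ± 1.90 CPM in DBA/2 and 15.8 ± 0.926 CPM in C57BL/6 (SD, n = 3 each).

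Among maintenance genes, Polg, the catalytic subunit of the mitochondrial DNA polymerase, rose, with 91.7, 89.6 and 90.1 CPM in DBA/2, against 73.8, 79.2 and 76.1 CPM in C57BL/6 (log2 fold change 0.25 ± 0.054 SE, edgeR adjusted p = 0.00134). Mgme1, a nuclease that trims replicating mitochondrial DNA, fell, with 3.71 ± 0.689 CPM in DBA/2 and 8.02 ± 1.46 CPM in C57BL/6 (SD, n = 3 each). The levels of mitochondrial DNA were not measured.

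Of 78 proteins of the mitochondrial ribosome, which holds the mt-Rnr1 and mt-Rnr2 RNAs, 11 were lower and 3 higher, or 17.9%, against 22.8% of all genes tested, with a median log2 fold change of -0.0054. Mrpl48 had 11.2 ± 1.28 CPM in DBA/2 and 50.7 ± 1.48 CPM in C57BL/6, and Mrpl35 had 5.81 ± 0.621 CPM in DBA/2 and 23.9 ± 0.670 CPM in C57BL/6 (SD, n = 3 each). Mrpl55 had 6.92 ± 0.677 CPM in DBA/2 and 16.6 ± 0.710 CPM in C57BL/6 (SD, n = 3 each). A similar copy of Mrpl48 stood at 8.53 CPM in DBA/2 and 2.60 CPM in C57BL/6, and the log2 ratio of the sum was -1.43 in place of -2.18, so the level of Mrpl48 is uncertain. Of 18 mitochondrial transfer RNA synthetases 2 fell and 2 rose, or 22.2%, close to the same 22.8%. Fars2, for phenylalanine, had 17.1 ± 1.33 CPM in DBA/2 and 12.6 ± 0.243 CPM in C57BL/6 (SD, n = 3 each).

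The nuclear subunits that assemble with the encoded ones were called in both directions. Of 77 tested, 9 were lower and 3 higher, or 15.6%, against 22.8% of all genes tested, with a median log2 fold change of -0.039. In complex I, 3 of 36 were lower, among them Ndufc2 with 45.4 ± 3.22 CPM in DBA/2 and 67.9 ± 3.596 CPM in C57BL/6. In complex II, 1 of 4 was lower. In complex III, 2 of 9 were higher, among them the core subunit Uqcrc1 with 10.8 ± 2.94 CPM in DBA/2 and 4.61 ± 0.353 CPM in C57BL/6 (SD, n = 3 each). Over all libraries Uqcrc1 had a mean of 7.7 CPM, against 183 CPM for Uqcrc2 of the same complex. Why Uqcrc1 was counted so low was not tested, so its level is uncertain. In complex IV, 3 of 13 were lower and 1 higher, and in complex V 2 of 15 were lower. Ndufa12 and Cox7c were also among those lower, but their copies moved the other way. The log2 ratios of the sums were -0.019 for Ndufa12, against -0.85 alone, and -0.28 for Cox7c, against -1.83 alone.

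Markers of other cells and of a neighbouring region were tested as lists, beside 13.7% of all genes lower in DBA/2 and 9.09% higher. Thalamus and habenula markers summed to 259 to 347 CPM in DBA/2 and 506 to 735 CPM in C57BL/6, with 6 of 12 lower by edgeR and 12 by DESeq2 and by limma-voom. Oligodendrocyte markers summed to 4585 to 6193 CPM in DBA/2 and 6849 to 8556 CPM in C57BL/6, with 1 of 8 lower by edgeR, 6 by DESeq2 and 8 by limma-voom. Astrocyte markers, with 5 of 7 lower, summed to 1882 to 1920 CPM in DBA/2 and 2210 to 2388 CPM in C57BL/6. Microglia markers, with 5 of 7 lower, summed to 275 to 302 CPM in DBA/2 and 341 to 375 CPM in C57BL/6. Choroid plexus markers, which overlapped, summed to 1237 to 2718 CPM in DBA/2 and 668 to 1507 CPM in C57BL/6. Of 8 choroid plexus markers edgeR called 0, with 0 at an unadjusted p under 0.05, DESeq2 called 0 and limma-voom 2 higher. Of 5 vessel markers 1 was lower and 1 higher. Of 5 red blood cell markers edgeR called 0, with 0 at an unadjusted p under 0.05, and DESeq2 and limma-voom each called 1 lower. Their part in the lower mitochondrial share of DBA/2 was not tested.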

How the data were processed

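RNA of the hippocampus was sequenced for 3 DBA/2 and 3 C57BL/6 libraries, grouped by the strain label. Per the labels' protocols, total RNA was isolated with TRIzol, and libraries were made with the NEBNext Ultra RNA kit and run on an Illumina HiSeq. Build GRCm38 and the tools HISAT2 2.0.1, Cufflinks 2.2.1 and Trimmomatic 0.30 are named, per the submitters' processing notes. Whether reads of DBA/2 and of C57BL/6 mapped to that build equally well was not tested. A lower count in either strain, also of a nuclear gene, therefore need not be lower expression. Not given in the sources used here are the counting program, its annotation, its use of strand and its handling of reads that map to several places. Whether each library is 1 animal is not stated. The p-values therefore rest on the spread between libraries, which may be technical.

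The authors deposited whole-number counts for 51912 genes and FPKM values that equal the count divided by gene length and by total count in FPKM units, within 0.005. Another 12 columns with no labelled sample were left unused. Total counts were 13839366 to 16912153 in DBA/2 and 13867280 to 20185683 in C57BL/6. Counting error allows up to 3 counts where 0 were seen.

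The main test was edgeR 4.0.16 (R 4.3.3; quasi-likelihood F test, robust fit, TMM factors, filterByExpr by strain) with Benjamini-Hochberg adjustment over 17517 genes, called under 0.05. Standard errors (SE) are the size of the log2 fold change over the square root of F. On simulated data for the strain comparison, DBA/2 over C57BL/6 (17270 genes), 84% of 1.5-fold changes and 99% of 2-fold changes were recovered, and 3.68% of calls were false. The simulation gave all genes the same dispersion and changed only genes above a limit on mean counts. These rates need not hold for genes that vary more, such as those inside the chromosome 1 block. Shares were compared by exact two-sided permutation over libraries, where the smallest p is 0.1. Coordinates, from 1, and sequences come from GENCODE M21 (GRCm38), which held 99.46% of the gene IDs and all 37 members. Nuclear copies were found with BLAST 2.17.0 among the annotated transcripts (at least 200 aligned bases, or 0.5 of the shorter transcript, at 95% identity). Sequence outside annotated transcripts was not searched. Alternatives were other scalings (DESeq2 size factors, library size alone, without mitochondrial counts, the summed mitochondrial protein genes), other count filters, the DESeq2 1.42.0 Wald test, limma-voom (limma 3.58.1), limma on log2(FPKM + 1) and log2(FPKM + 0.1), the replicate number as a block, summed copies, and each library left out.

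The members and lists were chosen with earlier results of these data known. Named nuclear genes are up to 3 called members per list with the largest change and at least 5 CPM in the higher strain.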

Additional observations from a re-analysis of the deposited data

How the results depend on the processing

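Of the 16 members tested, the direction held under each alternative except where given here. Scaled to the summed mitochondrial protein genes, 2 protein genes were lower and 7 higher in DBA/2, and mt-Nd1 (0.13), mt-Nd2 (0.16), mt-Co1 (0.018) and mt-Nd4 (0.019) turned to positive log2 fold changes, which follows from dividing by a total that is itself lower. limma on either FPKM scale called 2 protein genes lower, mt-Nd5 and mt-Nd6, and 3 higher. The calls of mt-Cytb, mt-Co1 and mt-Nd4 ended there, with limma adjusted p = 0.172, 0.637 and 0.288 on log2(FPKM + 1). The DESeq2 Wald test and limma-voom each called 3 higher. The cause of these differences between tools was not tested. Leaving out 1 library gave 0 to 4 higher protein genes, with 4 without DBA/2 replicate 3. Without the 2 libraries rich in Xist, chosen after seeing the data and leaving 1 C57BL/6 library assumed to vary like the others, 3 protein genes were lower, mt-Nd2 stood at 0.014, the mt-Nd6 per mt-Nd5 difference at -0.00875 and the mt-Nd4 share difference at -0.217 percentage points, and the nuclear expression genes had 10 lower and 2 higher. Leaving out 1 library moved the mt-Nd6 per mt-Nd5 difference between -0.00620 and 0.00719, that of the mt-Nd4 share between -0.0411 and 0.258 points, and the lower nuclear subunits between 5 and 10 (5 without DBA/2 replicate 2, C57BL/6 replicate 1 or C57BL/6 replicate 2). Library size alone gave 15 higher nuclear expression genes in place of 8. The replicate numbers do not pair the samples (correlations of same-numbered deviations 0.153, -0.13 and -0.00127), and with the replicate number as a block 5 protein genes were lower and 0 higher. Over all genes, the block gave 3827 calls in place of 4000. Depth limits mt-Atp8, mt-Nd3 and mt-Nd4l, with 21 to 88 counts a library.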
